A study of Mus musculus with 25 samples.

Results

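The 10 endothelial genes of lung vessels and lymphatics described here were followed through the first 96 h of calorie restriction in mouse lung. They are Lyve1, Flt1, Kdr, Emcn, Ace, Thbd, Acvrl1, Pecam1, Tek and Vwf, and every probe set of the array annotated with 1 of these symbols and no other was taken. The 10 genes had 19 of the 12488 probe sets on the array. Of these, 16 were bright enough to be tested, and 3 were not: Emcn 93884_at, Ace 101428_at and Vwf 97052_at. Each of the 10 genes kept at least 1 tested probe set.

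The study asked how gene expression in the lung changes while a restricted diet leads to loss of alveoli. Lung RNA of C57BL/6 mice was hybridised to Affymetrix MG-U74Av2 arrays, 24 arrays in 11 groups. The calorie-restricted (CR) mice had their calories reduced by 2/3 and were killed 2, 4, 12, 24, 48, 72 or 96 h after restriction began, with 2 arrays for each time. There were 4 arrays of fed controls at 0 h, and 2 at each of 2, 4 and 12 h. All groups shared the strain, the tissue was lung, and no genotype, age or sex is given in the sources used here. The labels of the control mice say that they were always fed but also carry the words of the reduction, which leaves their feeding in doubt. Each early CR group (2, 4 and 12 h) was set against fed mice of its own hour. The late CR groups (24 to 96 h, 8 arrays) were compared with fed 0 h, which the labelled hours put at the same time of day, and, as a second control, with fed 2, 4 and 12 h (6 arrays). Arrays of a group are named by a number and a letter. Letters a and b may be repeat hybridisations of 1 RNA, so p-values may measure only technical spread.

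The endothelium is the single cell layer that lines blood and lymph vessels. In the lung it forms most of the alveolar capillary wall, where vascular endothelial growth factor (VEGF) from the epithelium acts on the receptors Kdr and Flt1, angiopoietins act on Tek, and bone morphogenetic proteins act on Acvrl1. Its surface also carries enzymes and clotting regulators such as Ace, Thbd and Vwf, while Lyve1 is a hyaluronan receptor best known from lymphatic endothelium and also carried by some macrophages.

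Of the 10 genes, 5 had an entry in the RefSeq promoter table (GRCm38.p6), namely Flt1, Kdr, Emcn, Ace and Tek. The 250 bases before the start site are shown for the 4 of them that passed the test in the late comparison below, as the stretch of sequence next to the start of each changed gene. Both strands were searched for AGGAAG, a core of the sites of ETS transcription factors, which are known regulators of endothelial genes, and for AGAACA, part of the binding site of the glucocorticoid receptor, which carries the response to the stress hormone that rises with fasting. Capitals mark a match; a match on the other strand reads CTTCCT or TGTTCT. The letters run 5′ to 3′ on the strand of the gene.
Flt1, chr5:147726012-147726261, minus strand: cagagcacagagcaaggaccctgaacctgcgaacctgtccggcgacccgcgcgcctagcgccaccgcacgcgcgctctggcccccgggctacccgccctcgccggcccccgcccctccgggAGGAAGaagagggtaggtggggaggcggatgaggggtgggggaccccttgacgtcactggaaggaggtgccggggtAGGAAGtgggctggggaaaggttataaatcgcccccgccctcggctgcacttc
Emcn, chr3:137340828-137341077, plus strand: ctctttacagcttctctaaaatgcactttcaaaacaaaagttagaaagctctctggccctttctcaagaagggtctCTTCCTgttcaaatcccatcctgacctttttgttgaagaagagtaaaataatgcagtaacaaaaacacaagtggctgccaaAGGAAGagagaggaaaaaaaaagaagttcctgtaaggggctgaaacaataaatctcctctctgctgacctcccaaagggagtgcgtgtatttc
Ace, chr11:105967698-105967947, plus strand: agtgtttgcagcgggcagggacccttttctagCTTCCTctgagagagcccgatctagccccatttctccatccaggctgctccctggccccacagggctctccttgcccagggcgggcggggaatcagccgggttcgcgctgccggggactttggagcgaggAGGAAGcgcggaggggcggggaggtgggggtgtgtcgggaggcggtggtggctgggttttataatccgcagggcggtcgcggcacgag
Tek, chr4:94739039-94739288, plus strand: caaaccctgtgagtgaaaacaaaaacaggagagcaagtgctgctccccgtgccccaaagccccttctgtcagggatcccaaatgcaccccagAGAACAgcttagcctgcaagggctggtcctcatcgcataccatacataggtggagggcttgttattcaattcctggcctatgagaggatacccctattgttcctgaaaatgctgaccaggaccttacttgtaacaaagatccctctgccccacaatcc
AGGAAG was found 2 times each in the windows of Flt1, Emcn and Ace, and AGAACA was found 1 time, in that of Tek. No match of one motif overlapped a match of the other. Of all 32851 promoter windows of the same length, 29.5% held AGGAAG and 16.1% held AGAACA. Neither motif was found in the window of Kdr or in the second window listed for Ace. These are letter matches, not measured sites, and the genes with AGGAAG include both rises and a fall.

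Signal is given as the deposited probe set intensity after each array was scaled to a common median, and a fold is the ratio of geometric means with its 95% confidence interval. All 7440 probe sets that passed a brightness filter were tested with limma, and one was called when its p, adjusted by Benjamini-Hochberg, was below 0.05. Levels of different probe sets are not comparable with each other. The array medians before scaling ran from 300.2 to 342.3. Arrays differed in their highest signal, which was 74440 to 99043 on 12 arrays and 31595 to 54315 on the other 12. The high range held CR 2, 12, 24 and 48 h, fed 12 h and number 1 of fed 0 h. The low range held CR 4, 72 and 96 h, fed 2 and 4 h and number 2 of fed 0 h. At fed 0 h the array number and this signal range cannot be told apart. Fed 0 h was the only group with arrays in both ranges. A fit with signal range as a block therefore takes its range effect from fed 0 h number 1 against number 2 alone. The ratio of 3′ to 5′ signal of the Gapdh control is a sign of RNA or labelling quality. It was 1.76 to 2.02 on the 4 fed 0 h arrays and 1.95 and 2.15 at CR 48 h. On all other arrays it was 1.01 to 1.66, and its part in the late differences was not tested. Letters a and b of a group correlated at 0.962 to 0.986 over all probe sets, but numbers 1 and 2 of fed 0 h at only 0.925 to 0.933. Between these numbers 3 of the 16 member probe sets were called higher in number 1 and 6 lower, where 20.0% of all probe sets tested were called higher and 19.9% lower, so the late difference from fed 0 h is given against each number for each member. The labelled tissue carried its endothelium: 6 of 8 further endothelial markers were on the array and none of the 6 was near the floor, the lower limit set on the signal. Tie1 and Sox18 were called higher in the late comparison below, though not against number 2 alone (adjusted p = 0.157 and 0.0917), and Cdh5, Eng, Icam2 and Sox17 were not. Their summed signal was 29852 to 31296 on the arrays of fed 0 h number 1, 44550 to 53067 on those of number 2 and 36730 to 60942 on the 8 late arrays. In lung tissue, fewer endothelial cells and less RNA per cell cannot be told apart.

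**Figure D1:**
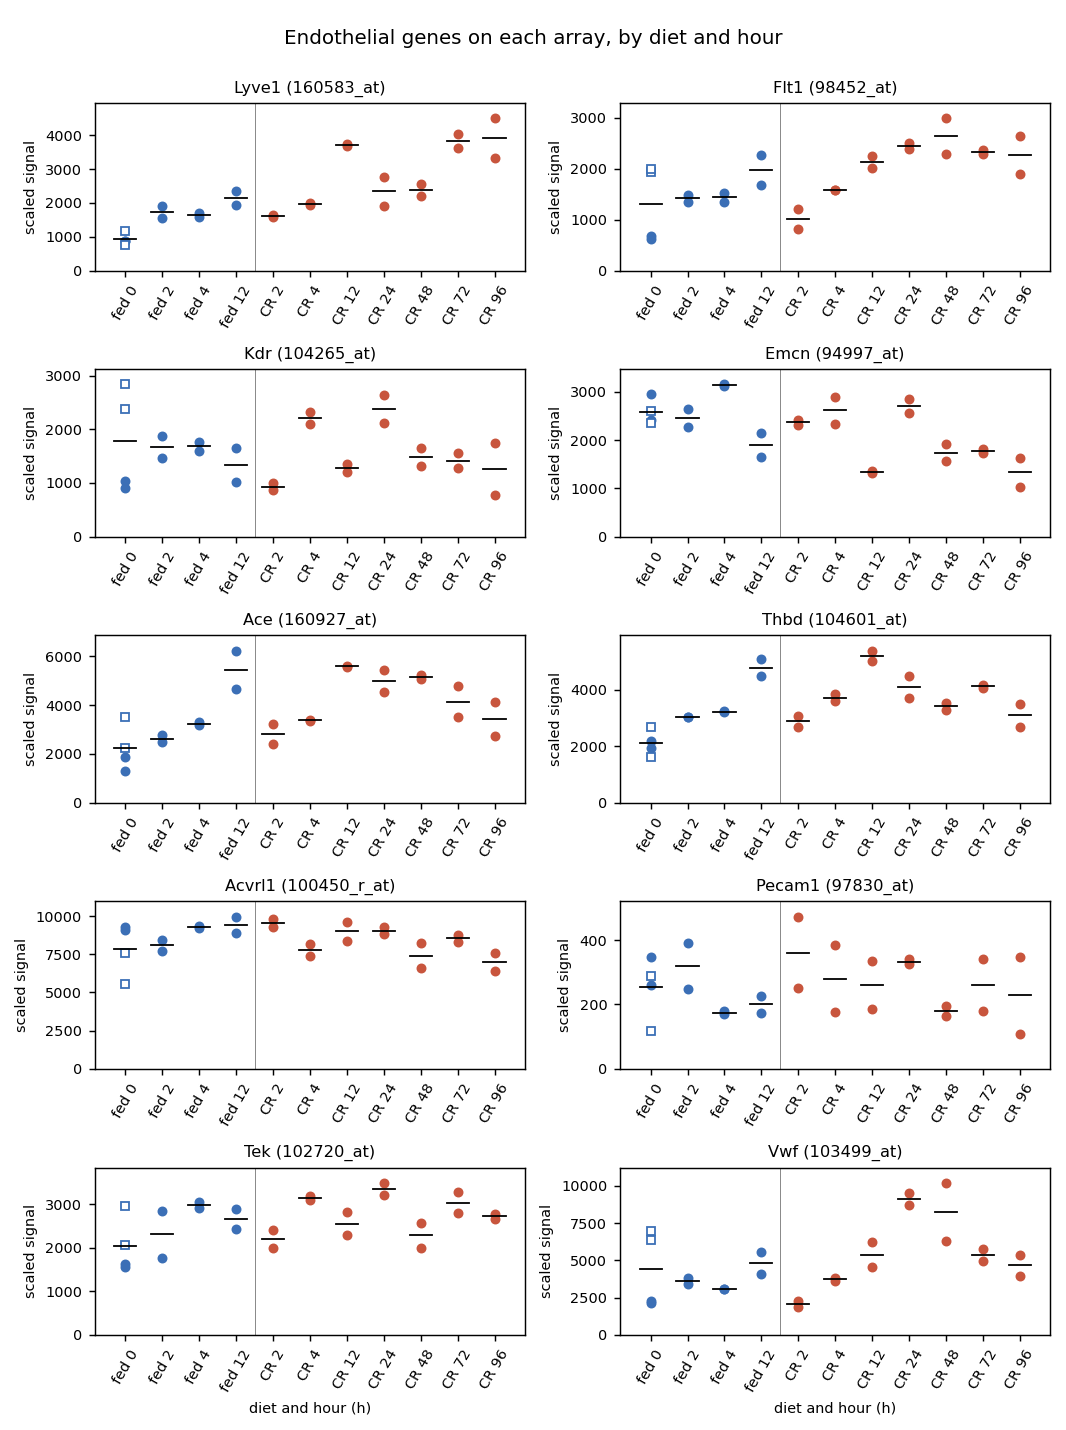
Scaled signal of the 10 genes on each of the 24 arrays, by diet and hour, with the tested probe set of highest mean signal for each gene. Blue marks fed and red CR; the open squares at fed 0 h are number 2, and each black line is a group mean. Lyve1 lies between 764 and 1166 at fed 0 h and between 1899 and 4505 on the 8 late CR arrays, while the 2 fed 0 h numbers lie apart for Flt1, Kdr and Vwf.

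After 24 to 96 h of restriction, Lyve1, Flt1, Ace, Thbd and Tek were called higher than at fed 0 h in at least 1 probe set, and Emcn lower. Against number 2 of fed 0 h alone, Flt1, Tek and Emcn were not called. Thbd and Emcn each had another tested probe set that was not called. Of the 16 member probe sets tested, 7 were called higher, against 9.85% of all probe sets tested, and 1 was called lower, against 8.24%. The 7 belong to 5 genes. The members were chosen with earlier results of these data known, so these shares are given side by side only. The changes of the 16 ran from -0.51 to 1.73 with a median of 0.38 on the log2 scale, beside a median of -0.00 over all probe sets. Over the 10 probe sets of highest signal, 1 per gene, the median was 0.63. The count of calls was 3 without fed 0 h 1a, where calls over all probe sets fell from 1346 to 595, and 4 without 1b. With letters a and b averaged, as would fit repeat arrays, and the late times taken as 1 group, only Lyve1 was called of the 16 (adjusted p = 0.0443), and 27 of all probe sets. Flt1, Ace, Thbd 104601_at, Tek and Emcn 94997_at then missed the threshold (adjusted p = 0.189 to 0.413). Against fed 0 h number 1 alone 11 of the 16 were called, where 25.7% of all probe sets were called higher and 23.8% lower. Against number 2 alone 4 were called, among them Kdr as lower, where 4.81% of all probe sets were higher and 2.94% lower.

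Lyve1 (160583_at) had the largest change of the 16 probe sets. At fed 0 h its signal was 888 and 862 on the arrays of number 1 and 764 and 1166 on those of number 2. It was 1899 and 2783 at CR 24 h, 2560 and 2216 at 48 h, 3629 and 4050 at 72 h and 3340 and 4505 at 96 h. Every late array was above every fed 0 h array. The mean rose from 920 ± 172 (SD, n = 4) to 3123 ± 913 (SD, n = 8), a fold of 3.31 (2.73 to 4.01; limma adjusted p = 6.09e-08). Both fed 0 h numbers gave the rise, with a log2 difference of 1.78 against number 1 (adjusted p = 8.10e-08) and 1.67 against number 2 (adjusted p = 1.00e-06). It was also called within each signal range, at 1.42 for CR 24 and 48 h against number 1 (adjusted p = 3.07e-06) and 2.03 for CR 72 and 96 h against number 2 (adjusted p = 1.57e-07).

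The rise in Lyve1 was called at each late time. Of all probe sets, 2.00% were called higher at 24 h, 2.53% at 48 h, 3.68% after 72 h and 3.92% after 96 h. The folds over fed 0 h were 2.53 (1.93 to 3.32; adjusted p = 0.00056) at 24 h, 2.62 (2.00 to 3.44; adjusted p = 0.000216) at 48 h, 4.22 (3.22 to 5.54; adjusted p = 1.19e-06) at 72 h and 4.27 (3.25 to 5.60; adjusted p = 7.90e-07) at 96 h. All 4 arrays of 72 and 96 h were above all 4 of 24 and 48 h. The 4 late times did not pass the test of a difference among them (moderated F, adjusted p = 0.112), and their split coincides with the signal range of the arrays. These 4 comparisons share the fed 0 h arrays. Over all 16 probe sets and 7 single times there were 12 calls, 25 without fed 0 h 2a and 30 without 2b. Over all probe sets these calls numbered 1542, 4013 without 2a and 3735 without 2b.

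Lyve1 was not flat in the fed mice either. Its signal was 1922 and 1567 at fed 2 h, 1695 and 1578 at 4 h and 2353 and 1947 at 12 h, all above the 4 arrays of fed 0 h. Fed 2, 4 and 12 h were 2.01-fold (1.64 to 2.46) higher than fed 0 h (adjusted p = 0.00131). The log2 difference was 1.06 against number 1 (adjusted p = 8.60e-05) and 0.95 against number 2 (adjusted p = 0.00102), and it was not called when only these groups were fitted (adjusted p = 0.1). Against these later fed groups the late CR mean was 1.65-fold (1.39 to 1.95) higher (adjusted p = 0.00063), with overlap of arrays, since CR 24 h 1a at 1899 and CR 48 h 1b at 2216 lay within the fed range. Against fed 12 h alone the difference was 0.49 on the log2 scale and was not called (adjusted p = 0.0696).

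In the early hours Lyve1 was 1591 and 1642 at CR 2 h, 1955 and 1987 at CR 4 h and 3747 and 3677 at CR 12 h. Both arrays of CR 12 h lay above both of fed 12 h, a fold of 1.73 (1.27 to 2.37) that was not called (adjusted p = 0.316). In order of the group means, CR 96 h (3923), CR 72 h (3840) and CR 12 h (3712) came first and did not differ beyond their spread. CR 48 h followed at 2388, a gap larger than the spread of either group. From there to CR 2 h at 1617 no neighbours in the order differed beyond their spread, and fed 0 h was the lowest of the 11 groups. Of 7 macrophage markers on the array, 6 were tested and none was called in the late comparison (median log2 difference 0.34). In fed 2, 4 and 12 h against fed 0 h, 1 of the 6 was called higher. The summed signal of the 7 was 43653 to 46729 in fed 0 h number 1, 17601 to 25652 in number 2 and 21152 to 44835 late. Marco was at the floor on 11 arrays. The part of macrophages in the Lyve1 signal was not tested.

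**Figure D2:**
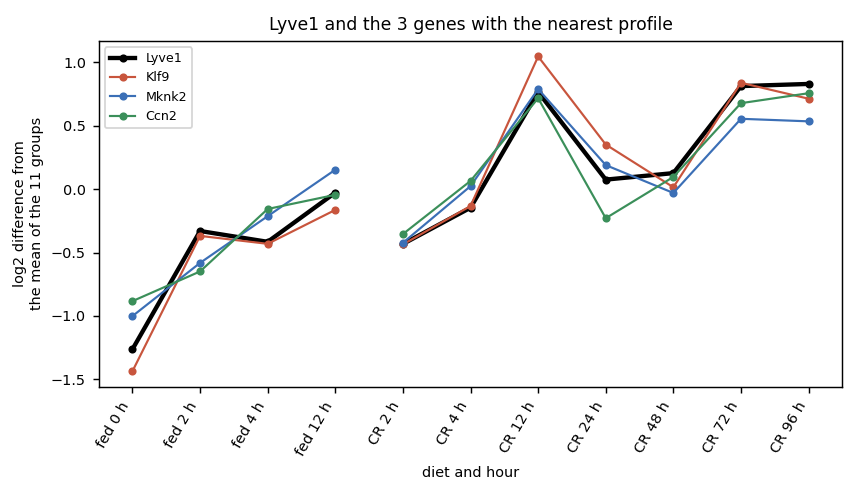
Group means of Lyve1 and of the 3 genes with the nearest profile over the 11 groups, as the log2 difference from each gene's own mean over the groups; lines join the hours of one diet. All 4 genes are lowest at fed 0 h and well above their own mean at CR 12, 72 and 96 h.

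The 3 genes whose profile over the 11 group means was nearest to that of Lyve1 were Klf9, Mknk2 and Ccn2. Klf9 encodes a Krüppel-like transcription factor, Mknk2 a kinase that acts on a translation initiation factor, and Ccn2 a matrix-associated growth factor. Their root mean square differences from Lyve1 were 0.145, 0.197 and 0.21 on the log2 scale, where the median over the 6724 probe sets compared was 0.652. The points share all 24 arrays, so this is a description.

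Flt1 and Kdr are the VEGF receptors of the list, Flt1 the one that binds VEGF tightly and signals weakly, Kdr the main signalling receptor. Flt1 98452_at was 626 and 671 in fed 0 h number 1 and 1940 and 1997 in number 2. On the 8 late CR arrays it ran from 1902 through a median of 2383 to 2987. The late arrays were all above number 1 and overlapped number 2. The mean was 1308 ± 763 (SD, n = 4) at fed 0 h and 2422 ± 312 (SD, n = 8) late, a fold of 2.13 (1.46 to 3.11; adjusted p = 0.00912). The second Flt1 probe set, 98453_at, was 313 and 437 in number 1, 1043 and 1097 in number 2 and 856 to 1601 late, a fold of 2.06 (1.41 to 3.00; adjusted p = 0.0113).

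The size of the Flt1 rise depended on which fed 0 h arrays were used. Number 2 was 3.04-fold above number 1 in 98452_at (adjusted p = 6.10e-06) and 2.89-fold in 98453_at (adjusted p = 2.95e-05). Against number 1 the late log2 differences were 1.89 and 1.81 (adjusted p = 3.47e-08 and 1.46e-07). Against number 2 they were 0.29 and 0.27 and neither was called (adjusted p = 0.285 and 0.375). Without fed 0 h 1a the differences were 0.81 and 0.71 (adjusted p = 0.0524 and 0.0591), and without 1b they were 0.84 and 0.87 (adjusted p = 0.0555 and 0.0613). Neither was called when only the groups compared were fitted (adjusted p = 0.0681 and 0.0747), nor was 98453_at with array weights (adjusted p = 0.0741). Within the signal ranges they were 1.96 and 1.67 for the high and 0.22 and 0.41 for the low. Against fed 2, 4 and 12 h they were 0.60 and 0.75 and missed the threshold (adjusted p = 0.137 and 0.0589). In 98453_at that difference was called when any 1 of the 4 fed 0 h arrays was left out, which changes the shared spread but not the value (adjusted p = 0.013 to 0.0425). At single late times, only 98453_at at 96 h was called for this gene, 2.52-fold (1.48 to 4.29) above fed 0 h (adjusted p = 0.0383). The lowest Flt1 group was CR 2 h, 812 and 1209 in 98452_at, where fed 2 h was 1343 and 1491, a log2 difference of -0.51 that was not called (adjusted p = 0.842). CR 2 h lies in the high signal range and fed 2 h in the low, so at this hour diet and range cannot be told apart, for Kdr and Vwf below as well.

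Kdr (104265_at) was not called in the late comparison. It was 1030 and 901 in fed 0 h number 1, 2372 and 2836 in number 2 and 776 to 2643 with a median of 1599 on the late arrays. The late arrays lay on both sides of number 1 and mostly below number 2, and the fitted log2 difference was -0.03 (95% interval -0.60 to 0.53; adjusted p = 0.946). Its direction turned with the control, at 0.68 against number 1 (adjusted p = 0.0147) and -0.75 against number 2 (adjusted p = 0.0424). Within the high signal range it was 0.95 (adjusted p = 0.00308) and within the low range -1.02 (adjusted p = 0.00883). No difference between the changes of Flt1 and Kdr was tested. The highest Kdr group means were 2379 at CR 24 h and 2207 at CR 4 h and the lowest was 930 at CR 2 h, 868 and 993, below fed 2 h at 1870 and 1463. That early difference of -0.83 on the log2 scale was not called (adjusted p = 0.781).

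Tek (102720_at), the angiopoietin receptor also called Tie2, was 1553 and 1635 in fed 0 h number 1, 2062 and 2950 in number 2 and 2003 to 3489 with a median of 2789 on the late arrays. All late arrays were above number 1 and they overlapped number 2. The fold was 1.42 (1.12 to 1.79; adjusted p = 0.0363), and no single late time was called. The log2 difference was 0.82 against number 1 alone (adjusted p = 0.000332) and 0.19 against number 2 alone (adjusted p = 0.536). It was not called without the brightness filter, with array weights or with only the groups compared, and leaving out any 1 of 6 arrays also ended the call: 0.39 without fed 0 h 1a, 0.41 without 1b, and 0.46 to 0.49 when CR 48 h 1a, CR 72 h 1b, CR 24 h 1b or CR 96 h 1b was omitted. Within the signal ranges it was 0.79 (high, called) and 0.22 (low, not called). Against fed 2, 4 and 12 h the difference was 0.11 (adjusted p = 0.714).

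Acvrl1, the receptor for bone morphogenetic proteins also known as Alk1, had 3 tested probe sets. Set 100450_r_at ran from 5528 to 9267 at fed 0 h and from 6409 to 9256 late, set 100449_g_at had late and fed 0 h means of 4310 and 4388, and none of the 3 was called in the late comparison, with log2 differences of 0.26 for 100448_at, -0.00 for 100449_g_at and 0.04 for 100450_r_at. Against number 1 alone these were 0.16, -0.25 and -0.21 and against number 2 alone 0.37, 0.25 and 0.29, none of them called. The third, 100448_at, differed among the 11 groups (moderated F, adjusted p = 0.0356). It was 2090 and 2175 at CR 12 h, 2640 and 1231 at fed 12 h and 890 and 952 at CR 48 h. Its highest group mean of either diet was that of 12 h. The lower fed 12 h array lay below both of fed 2 h (1333 and 1288). Fed 12 h did not differ from the next group in the order beyond the spread. Pecam1 (97830_at), the adhesion protein of endothelial junctions, was dim, 108 to 473 over the 24 arrays, and reached the array's own median on only 9 of them. Its late log2 difference was -0.03 with an interval of -0.76 to 0.71 (adjusted p = 0.965), -0.38 against number 1 and 0.32 against number 2, neither called.

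Among the enzymes and clotting regulators, Ace and Thbd rose, and both were also high in fed mice at 12 h. Ace 160927_at, the probe set of angiotensin-converting enzyme with the highest signal of the 3, was 1303 and 1878 in fed 0 h number 1 and 2245 and 3507 in number 2. It ran from 2730 through 4665 to 5445 on the late arrays, of which those of CR 24 and 48 h (4538 to 5445) were above all fed 0 h arrays and those of 72 and 96 h overlapped number 2. The fold was 2.07 (1.56 to 2.74; adjusted p = 0.0016). It was called at 24 h (2.37-fold, adjusted p = 0.018), 48 h (2.46-fold, adjusted p = 0.0103) and 72 h (1.96-fold, adjusted p = 0.0441), but not at 96 h (1.61-fold, adjusted p = 0.133). Against number 2 alone the log2 difference was 0.63 (adjusted p = 0.0424), against number 1 it was 1.47 (adjusted p = 2.80e-06), and within the low signal range it was 0.40 and not called (adjusted p = 0.225).

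Fed 12 h reached 6239 and 4648 for Ace and CR 12 h 5614 and 5557, the highest 2 group means, which did not differ beyond their spread. Fed 2 and 4 h were 2492 to 3293. Fed 2, 4 and 12 h were 1.71-fold (1.27 to 2.30) above fed 0 h and missed the threshold (adjusted p = 0.055; 1.02 on the log2 scale and called without fed 0 h 2b, adjusted p = 0.00456). It was called against number 1 alone (adjusted p = 0.000111), and against number 2 alone the log2 difference was 0.35 and not called (adjusted p = 0.263). Late CR was 0.28 above fed 2, 4 and 12 h on the log2 scale (adjusted p = 0.373), and the value followed the control: 0.72 and called against fed 2 h alone (adjusted p = 0.017), -0.31 against fed 12 h alone (adjusted p = 0.342), and 0.42 and called with signal range as a block (adjusted p = 0.022). The dimmer Ace 161224_f_at was 267 to 488 at fed 0 h and 388 to 1099 late, a fold of 1.79 (1.27 to 2.52; adjusted p = 0.0207). Against number 1 alone the log2 difference was 1.04 (adjusted p = 0.00565). The call was lost against number 2 alone (0.64, adjusted p = 0.201), within the low signal range (0.76), without the brightness filter, with array weights, with only the groups compared, without fed 0 h 1a (0.69, adjusted p = 0.0979) and without 1b (0.86, adjusted p = 0.0554). The third Ace probe set was at the floor on 14 of 24 arrays.

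Thbd 104601_at, for thrombomodulin, which turns thrombin into an activator of protein C, was 2185 and 1928 in fed 0 h number 1 and 1635 and 2702 in number 2. Late arrays ran from 2699 through 3620 to 4504, and only the lowest of them, CR 96 h 1a, fell within the fed 0 h range. The mean rose from 2112 ± 453 (SD, n = 4) to 3690 ± 566 (SD, n = 8), a fold of 1.76 (1.47 to 2.09; adjusted p = 0.000209). The 2 fed 0 h numbers were not called different for this probe set (adjusted p = 0.899), and the late log2 difference was 0.83 against number 1 and 0.80 against number 2 (adjusted p = 9.66e-05 and 0.00138). It was not called with letters averaged and late times as 1 group (adjusted p = 0.189). It was called at 24 h (1.97-fold, adjusted p = 0.00402), 48 h (1.65-fold, adjusted p = 0.0214) and 72 h (1.99-fold, adjusted p = 0.00179), and at 96 h it was 1.48-fold (adjusted p = 0.0537).

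The later fed mice had a like level of Thbd. Fed 2 h was 3051 and 3041, fed 4 h 3206 and 3261 and fed 12 h 5088 and 4495, each above all fed 0 h arrays. Fed 2, 4 and 12 h were 1.74-fold (1.45 to 2.09) above fed 0 h (adjusted p = 0.00449), at 0.82 on the log2 scale against number 1 (adjusted p = 0.000354) and 0.78 against number 2 (adjusted p = 0.00248). This was not called when only these groups were fitted (adjusted p = 0.166). Late CR lay 0.02 above fed 2, 4 and 12 h on the log2 scale, with a 95% interval of -0.21 to 0.24, and at -0.39 against fed 12 h alone (adjusted p = 0.113). CR 12 h, at 5031 and 5398, was the highest group. A second probe set, 162023_f_at, was not called: it ran from 834 to 1088 late and 896 to 1093 at fed 0 h (log2 difference -0.07, adjusted p = 0.724; -0.11 against number 1 and -0.02 against number 2), so the 2 Thbd probe sets disagree. By the naming of this array, sets ending in _f_at, such as this one and Ace 161224_f_at, can match other members of a sequence family.

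Vwf (103499_at), von Willebrand factor, which tethers platelets and is stored in endothelial granules and in megakaryocytes, had the widest range of group means among the tested probe sets, with a ratio of 4.39 between its highest and lowest group means. It was 2145 and 2309 in fed 0 h number 1 and 6374 and 6976 in number 2. It was 8700 and 9502 at CR 24 h and 10214 and 6295 at 48 h, then 4943 and 5779 at 72 h and 3955 and 5379 at 96 h. The arrays of 24 and 48 h were above number 1 and, except for CR 48 h 1b, above number 2, while those of 72 and 96 h lay between the 2 numbers. The late fold over fed 0 h of 1.69 (1.15 to 2.48) missed the threshold (adjusted p = 0.0529). It was 1.55 on the log2 scale against number 1 (adjusted p = 4.84e-07), -0.03 against number 2 (adjusted p = 0.929), 1.94 within the high signal range (adjusted p = 2.56e-07) and -0.43 within the low (adjusted p = 0.149). Leaving out 1 array made it a call in 4 cases, fed 0 h 2a (adjusted p = 0.00973) or 2b (log2 difference 1.04, adjusted p = 0.0062), CR 48 h 1b (0.84, adjusted p = 0.044) and CR 96 h 1a (0.81, adjusted p = 0.0491).

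Against fed 2, 4 and 12 h (3057 to 5547), late Vwf was called at 1.73-fold (1.23 to 2.43; adjusted p = 0.0492). This call was held in 10 of 37 alternatives, and leaving out any 1 of 19 arrays ended it, with log2 differences of 0.71 (without CR 48 h 1a) to 0.87 (without fed 12 h 1a). The lowest group was CR 2 h, 1842 and 2309, against 3432 and 3840 at fed 2 h (log2 difference -0.82, adjusted p = 0.781). The ratio of the 3′ to the 5′ actin control, a sign of RNA or labelling quality, was 1.24 to 2.37 on the other 20 arrays, where the 2 arrays of CR 24 h had 2.77 and 1.80 and those of CR 48 h had 3.81 and 2.69. Its part in the Vwf levels was not tested. The 1 platelet marker tested of 3 on the array was not called.

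Emcn, the sialomucin endomucin of capillaries and veins, was the member that fell. Set 94997_at was 2943 and 2420 in fed 0 h number 1 and 2359 and 2593 in number 2. It was 2550 and 2851 at CR 24 h, 1908 and 1571 at 48 h, 1816 and 1722 at 72 h and 1628 and 1031 at 96 h. The 24 h arrays lay within the fed 0 h range and all 6 later ones lay below it. The late mean was 1.42-fold (1.18 to 1.70) lower than fed 0 h (adjusted p = 0.0109). At 96 h, where 2.57% of all probe sets were called lower, it was 1.98-fold (1.53 to 2.57) lower (adjusted p = 0.00202). The call was lost without fed 0 h 1a (log2 difference -0.44, adjusted p = 0.0528) and against number 2 alone (-0.45, adjusted p = 0.0733), while against number 1 alone it was -0.56 (adjusted p = 0.00432). It was also lost with array weights (adjusted p = 0.103), with only the groups compared (adjusted p = 0.0677) and with letters averaged (adjusted p = 0.413). The difference was -0.30 within the high signal range (adjusted p = 0.14) and -0.71 within the low (adjusted p = 0.00784).

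The second Emcn probe set, 93885_g_at, was 1652 and 1565 in fed 0 h number 1, 981 and 1084 in number 2 and 712 to 1657 late. It was not called against fed 0 h (log2 difference -0.31, adjusted p = 0.155); against number 1 alone it was -0.63 (adjusted p = 0.00144), against number 2 alone 0.01 (adjusted p = 0.972) and without fed 0 h 2a -0.44 (adjusted p = 0.0376). Against fed 2, 4 and 12 h both sets were called lower, 1.35-fold in 94997_at (1.15 to 1.58; adjusted p = 0.025) and 1.48-fold in 93885_g_at (1.22 to 1.79; adjusted p = 0.014). Leaving out any 1 of 8 arrays ended the call of 94997_at (-0.43 to -0.35; fed 2 h 1a, fed 4 h 1a and 1b, fed 12 h 1b, CR 24 h 1a, CR 48 h 1b, CR 72 h 1b and CR 96 h 1b), and any 1 of 3 that of 93885_g_at (-0.55 to -0.48; fed 2 h 1a, fed 4 h 1a and fed 12 h 1a). In 94997_at fed 12 h, at 1644 and 2143, was below fed 4 h, at 3124 and 3150, and CR 12 h, at 1354 and 1315, was as low as CR 96 h. Against fed 12 h alone the late differences were -0.05 and -0.16 and neither was called (adjusted p = 0.884 and 0.575). The third set, 93884_at, had a mean signal of 113 and was not tested.

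**Figure D3:**
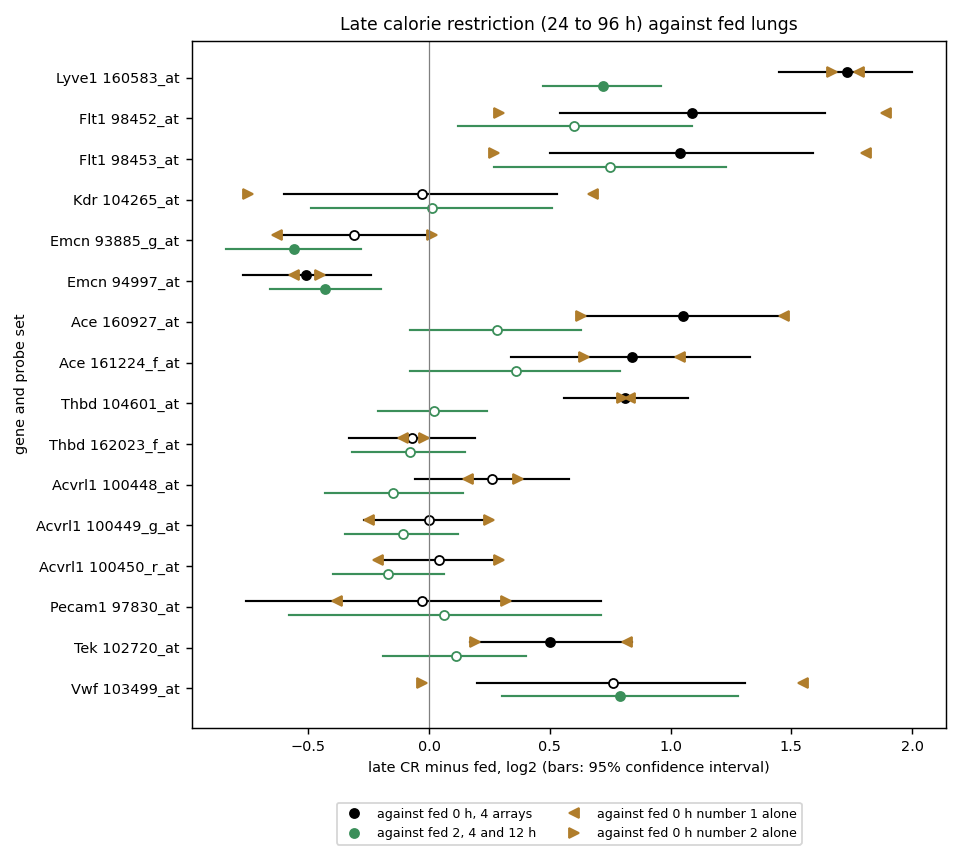
Log2 difference of the late CR mean (24 to 96 h, 8 arrays) from fed lungs for the 16 tested probe sets. Black points are against fed 0 h and green points against fed 2, 4 and 12 h, with 95% confidence intervals and filled where called; brown triangles are the values against each fed 0 h number alone. Lyve1 and Thbd 104601_at have both triangles close to the black point, while those of Flt1, Kdr and Vwf lie far apart.

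Late CR against fed 2, 4 and 12 h gave 2 calls higher (Lyve1 and Vwf), against 3.62% of all probe sets, and 2 lower (both of Emcn), against 2.73%. The 4 calls fell to 1 without fed 2 h 1a or fed 4 h 1a, and to 2 without fed 4 h 1b, fed 12 h 1a or 1b, CR 24 h 1a, CR 72 h 1b or CR 96 h 1b. Fed 2, 4 and 12 h against fed 0 h gave 2 calls higher (Lyve1 and Thbd), against 1.13%, and 0 lower, against 0.726%; at an unadjusted p under 0.05 limma held 5 of 16 and 17.6% of all. Without fed 0 h 2b there were 4 calls, the others Ace 160927_at and Tek (log2 difference 0.59, adjusted p = 0.0347). Both comparisons share arrays with the late comparison, so their values are given side by side only. For Lyve1 the log2 differences were 1.73 for late CR and 1.01 for later fed against fed 0 h, for Thbd 0.81 and 0.80, for Ace 160927_at 1.05 and 0.77, for Flt1 98452_at 1.09 and 0.49 and for Emcn 94997_at -0.51 and -0.08.

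In the first 12 h of restriction no member was called in the mean of the 3 differences from the fed group of the same hour. The limma test called 0 of 16 higher and 0 lower, where 0.0134% of all probe sets were called in each direction. At an unadjusted p under 0.05 it held 2 of the 16 (12.5%) and 3.28% of all. These were Lyve1, with a log2 difference of 0.32, and Emcn 94997_at, with -0.27, each with a limma adjusted p of 0.999. A block for signal range carries the difference of fed 0 h number 1 from number 2 into these early values. With it both Flt1 probe sets were called higher, and calls over all probe sets went from 2 to 452. Set 98452_at turned from -0.09 to 0.45 (limma adjusted p = 0.0483) and 98453_at went from 0.00 to 0.51 (limma adjusted p = 0.0458). Kdr then turned from -0.16 to 0.32 and Vwf from -0.13 to 0.40, neither called (adjusted p = 0.313 and 0.0898). A difference of the early effects between hours was called by limma for 0 members, and for 0% of all probe sets. Without adjustment at 0.05, 1 of the 16 passed, again Lyve1, and 4.81% of all. The 4 late times differed for 0 of 16, against 0.578% of all. Unadjusted at 0.05, the limma F test held 3 of the 16 and 10.3% of all. These 3 were Lyve1 and both Emcn sets, of which 94997_at had a limma adjusted p of 0.0719. Any difference among the 11 groups was called for 6 of 16, against 9.26% of all: Lyve1 (adjusted p = 6.77e-06), Thbd 104601_at (0.00136), Emcn 94997_at (0.00205) and 93885_g_at (0.00781), Ace 160927_at (0.0145) and Acvrl1 100448_at. Without fed 0 h 2b this count was 10.

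**Figure D4:**
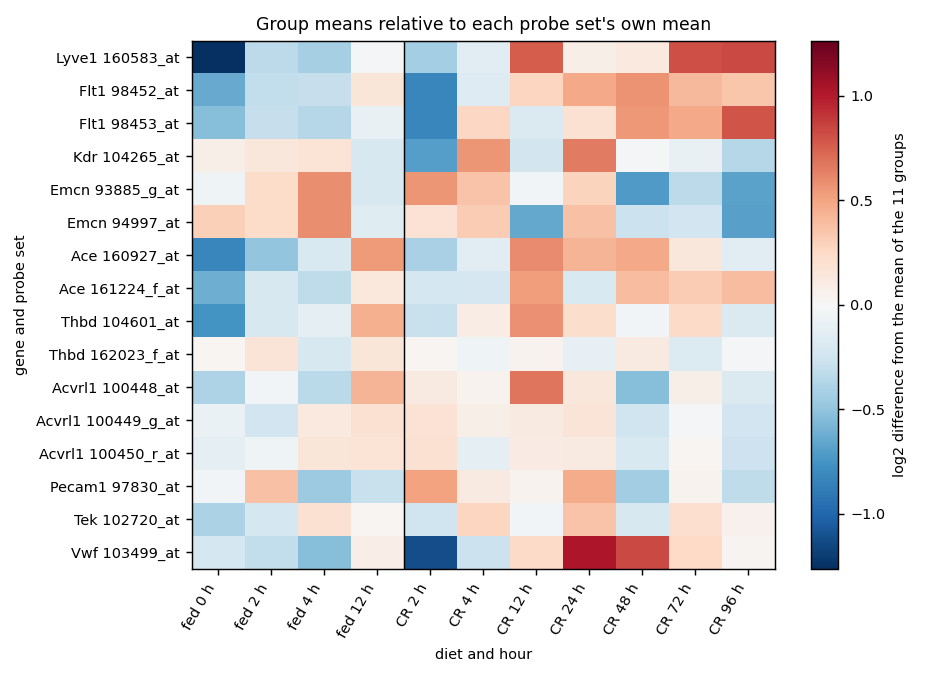
Group means of the 16 tested probe sets over the 11 groups, as the log2 difference from each probe set's own mean, with fed groups left of the black line. Red is higher and blue lower. Lyve1 is lowest at fed 0 h, the Vwf high is at CR 24 and 48 h, and both Emcn sets are low at CR 48 and 96 h.

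Nearest profiles over the 11 group means were named for each other member called in the late comparison. For Flt1 98452_at they were Nrbp2, Cd47 and Col4a2, the last a collagen chain of basement membranes, at root mean square log2 differences of 0.114 to 0.129 (median over all 0.512). For Emcn 94997_at they were Mettl5, Lmo2, a transcriptional partner in blood and vessel development, and Map4k1, at 0.174 to 0.189 (median 0.467). For Ace 160927_at they were Adarb1, Prpf8 and Smad6, an inhibitor of bone morphogenetic protein signalling, at 0.153 to 0.187 (median 0.52). For Thbd 104601_at they were Atp13a2, Ext1 and Tbx2, at 0.16 to 0.168 (median 0.442). For Tek they were Fam171a1, Cdk11b and Dnm1l, at 0.0994 to 0.116 (median 0.331).

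Among 60 other endothelial genes, listed with earlier results of these data known, 46 were on the array and 39 were tested. In the late comparison 11 rose, where 9.85% of all probe sets were higher, 1 fell, where 8.24% were lower, and 27 were not called. The median log2 difference was 0.34 beside -0.00 for all probe sets. The 4 rises of smallest adjusted p were Klf2 (2.94-fold, adjusted p = 9.31e-05) and Klf4 (2.35-fold, adjusted p = 0.000214), transcription factors induced by blood flow, Hpgd (1.63-fold, adjusted p = 0.00135), which breaks down prostaglandins, and Ramp2 (1.61-fold, adjusted p = 0.00214), part of the adrenomedullin receptor. Klf2 went from 723 ± 281 (SD, n = 4) to 2016 ± 453 (SD, n = 8). Gja4, a gap junction protein of arterial endothelium, fell 2.16-fold, from 2260 ± 734 to 1056 ± 354 (adjusted p = 0.000993). These 5 genes were called against each fed 0 h number alone, while the list had 17 higher and 6 lower against number 1 and 8 higher and 1 lower against number 2. Of all probe sets, 25.7% were higher and 23.8% lower against number 1, and 4.81% and 2.94% against number 2.

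Ligands and partners of the member receptors were listed in the same way, 59 genes, of which 48 were on the array and 34 tested. Here 15 rose, against 9.85% of all probe sets, 2 fell, against 8.24%, and 17 were not called, with a median log2 difference of 0.41. The leading rises were Sphk1 (2.05-fold, adjusted p = 1.74e-06), which makes sphingosine 1-phosphate, F3, the tissue factor that starts clotting (2.24-fold, adjusted p = 0.000993), Smad6 (1.82-fold, adjusted p = 0.00114) and Edn1, the vasoconstrictor endothelin (1.69-fold, adjusted p = 0.00175). Tgfb3 was 1.37-fold lower (adjusted p = 0.0153) and Id2, an inhibitor of transcription factors, 1.35-fold lower (adjusted p = 0.0404). Against number 1 alone 20 were higher and 3 lower, where 25.7% of all probe sets were higher and 23.8% lower. Against number 2 alone 8 were higher and 0 lower by limma, where 4.81% of all probe sets were higher and 2.94% lower. Tgfb3 and Id2 were then no longer called (limma adjusted p = 0.0611 and 0.664). The VEGF and angiopoietin ligands, looked up after their values were seen, were not called: Vegfa 0.40, Vegfd 0.42, Vegfc 0.20, Vegfb 0.02 and Angpt2 0.05 on the log2 scale (adjusted p = 0.12 to 0.929).

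In the early comparison limma called 0 of the 39 and 0 of the 34. Late CR against fed 2, 4 and 12 h gave 4 higher and 3 lower among the other endothelial genes, with Klf2 at 2.77-fold (adjusted p = 5.01e-05) and Gja4 at 1.85-fold lower (adjusted p = 0.00304), and 3 higher and 1 lower among the ligands and partners, with Sphk1 at 2.42-fold (adjusted p = 2.43e-08), where 3.62% of all probe sets were higher and 2.73% lower. Fed 2, 4 and 12 h against fed 0 h gave 1 higher in each list, Calcrl (2.15-fold) and Tgfb1 (3.01-fold), both named after their values were seen, where 1.13% of all probe sets were higher.

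**Figure D5:**
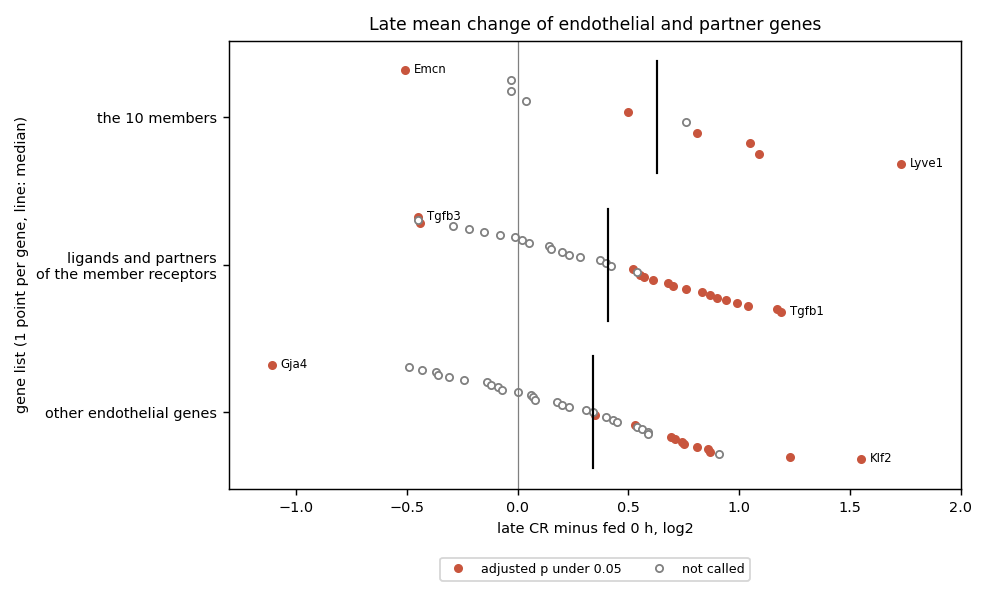
Log2 difference of late CR from fed 0 h for the 10 members (the probe set of highest signal), the 34 tested ligands and partners and the 39 other endothelial genes tested. Each point is 1 gene, and the line is the median of its list, 0.63, 0.41 and 0.34. Lyve1 and Klf2 are the highest of their lists, and Emcn and Gja4 the lowest.

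Markers of other cell types differed between the same arrays, and their part in the members' changes was not tested. In the late comparison 2 of 4 B cell, 4 of 6 heart muscle, 2 of 5 smooth muscle and pericyte, 1 of 2 T and NK cell, 1 of 4 neutrophil and 1 of 3 mesothelial markers tested were called lower. Of 2 alveolar type II markers 1 was called higher, of 6 fibroblast markers 1 was higher and 1 lower, and none was called of 3 alveolar type I, 4 airway and 3 erythroid markers. Summed B cell signal was 8009 to 8956 in fed 0 h number 1, 1878 to 3673 in number 2, 4344 to 6841 at fed 2 to 12 h and 1672 to 2957 late. Summed heart muscle signal was 26135 to 26509, 24631 to 31277, 14571 to 20418 and 11688 to 23368 in the same order, and no defining heart marker was near the floor. The erythroid sum was 75677 to 81138 in number 1 and 37364 to 39779 in number 2.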

How the data were processed

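Lung RNA of 24 mouse samples was measured on MG-U74Av2 arrays. The deposited table holds 1 linear intensity per probe set and array. The software behind it was not given in the sources used here. Per the submitters' processing notes MAS5, with no version given, was used for the 1 array of another platform, which the labels put in no group here and which was not analysed here. Before scaling, the mean of each deposited column with 2% trimmed at either end was 800.

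The 66 control probe sets were left out, and each array was scaled to a common median (factors 0.92 to 1.05). Signals under the 25th percentile (80.37) were set to it, log2 was taken, and the 7440 of 12422 probe sets that reached the median of the array in 2 or more arrays were tested with limma 3.58.1 in R 4.3.3 (1 mean per group, all 24 arrays, 13 residual degrees of freedom, trended eBayes, two-sided, Benjamini-Hochberg). A fold is on the floored scale. Neighbours in an order of group means differed beyond their spread when their gap exceeded the larger SD. The scripts were tested on simulated data. The number of arrays limits the precision.

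Genes were named from GEO's platform annotation, which can be old: 10833 probe sets had 1 symbol, 396 several and 1193 none. All member probe sets are named, with up to 4 rises and 4 falls of each list of other genes by adjusted p in the late comparison, and the 3 nearest profiles of each called member. The members, lists and markers were chosen with earlier results of these data known. The alternatives were the scaling, floor, filter, array weights, signal range, choice of control and each array left out.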

Additional observations from a re-analysis of the deposited data

How the results depend on the processing

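Over 64 member results and their alternatives, 2199 of 2336 comparisons kept their side of the threshold, 86 lost a call, 46 gained one and 5 reversed. The 2199 include 112 whose direction changed while neither fit gave a call. The late rise of Lyve1 was called in 39 of 39 alternatives (log2 1.42 to 2.03) and that of Thbd 104601_at in 38, all but the one with letters averaged and late times as 1 group (adjusted p = 0.189). The reversals were Flt1 98452_at early, 0.45 with signal range as a block; Kdr late, 0.68 against fed 0 h number 1 and 0.95 within the high signal range; and, for fed 2, 4 and 12 h against fed 0 h number 1, Kdr at 0.67 and Vwf at 0.76. The 8 late calls became 4 with array weights, 3 with only the groups compared, 4 against number 2 alone, 4 within the low signal range, 1 with letters averaged and late times as 1 group, and 3 to 10 with 1 array left out. The 4 against number 2 alone and the 4 within the low range each include Kdr, called lower and not among the 8. The 4 calls against the later fed groups became 8 with the range block, 1 against fed 12 h alone and 1 to 5 with 1 array left out. The 2 calls between fed groups became 0 with only the groups compared, 8 against number 1, 6 against number 2 and 2 to 4 with 1 array left out. The 6 against number 2 include Kdr and Vwf, both called lower. The 0 early calls by limma became 2 with the range block. The 12 calls at single times became 25 with the range block and 9 to 30 with 1 array left out. Calls of a difference among late times went from 0 to 1 with quantile normalization or values as deposited, 3 with array weights, 7 with the range block and 0 to 1 with 1 array left out; those among the 11 groups went from 6 to 10 with array weights, 11 with the range block and 5 to 10 with 1 array left out. Calls over all probe sets moved as well. With the range block they went from 2 to 452 early and from 472 to 2243 against the later fed groups. They also went from 1542 to 7924 at single times, 43 to 1785 among late times and 689 to 3138 among the 11 groups. With array weights they went from 1346 to 288 late, 43 to 238 among late times and 689 to 1983 among the 11 groups. The range block takes its range effect from fed 0 h number 1 against number 2 alone, so its shifts rest on that difference. The cause of these shifts was not tested further. With the letter as a replicate block the counts were 8 late, 3 against the later fed groups (Vwf lost), 2 between fed groups, 12 at single times and 6 among the 11 groups. The a-minus-b differences were compared in 66 pairs, with the 2 numbers of fed 0 h taken apart. They correlated at -0.19 to 0.123, and 2 of the 66 were above 0.1. What the letters stand for was not tested. For the 2 lists of other genes, counts against each fed 0 h number were added after seeing the data: 12 calls became 23 and 9 for other endothelial genes, and 17 became 23 and 8 for ligands and partners. Dim probe sets, such as Pecam1, limit what can be seen of small changes.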
